A study of Rattus norvegicus with 4 samples.

Results

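Neurexins sit in the presynaptic membrane and bind neuroligins across the synaptic cleft, and alternative splicing of the neurexins selects their partners. Shank proteins lie below the postsynaptic membrane, where they tie the scaffold beneath neuroligins and glutamate receptors to the actin cytoskeleton. Cntnap2 is a neurexin relative of the axon that clusters potassium channels. Synapses of the rodent cortex are mostly still to form at birth, and variants in genes of all 4 families have been linked to autism.

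Frontal cortex of newborn rats, labelled Wistar and called Wistar Furth in the methods, was profiled by RNA-seq of polyadenylated RNA to ask whether exposure to bisphenol A (BPA) before birth alters expression. Control pups came from vehicle-treated dams. BPA pups came from dams given 5000 µg/kg of body weight daily by oral gavage, and in both groups dosing began on gestational day 1 and ended at birth. The pups were of postnatal day 1 by the labels and of days 1 to 2 by the study's methods. There were 4 libraries, a control and a BPA library of each sex. By the methods 6 litters supplied 3 pups for every combination, and whether a library pooled these is not stated, so within a sex no replicate check existed, and treatment and litter cannot be told apart. The tissue is called frontal cortex in the labels and prefrontal cortex in the study's text.

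The genes described are Nrxn2, Nrxn3, Nlgn1, Nlgn2, Nlgn3, Shank1, Shank2, Shank3 and Cntnap2, taken wherever the symbol column of the deposited tables held exactly that name. Of these 9 symbols, 8 were found, each on 1 row, among 17419 rows in all. Cntnap2 is not reported under its symbol, and 2 assembled rows with a related annotation are described at the end of the results. The values were FPKM, fragments per kilobase of transcript with the total of mapped fragments scaled to a common size, so that levels of genes of different length can be compared. All 8 genes passed a mean FPKM of 1, as did 13163 rows in all. The files hold no counts. The low values implied between 8956000 and 9258500 fragments per library, and the members then rested on 434 to 5210 estimated fragments in a library, which covers counting error only.

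The members spanned a wide range of levels, in nearly the same order in every library. Averaged over the 4 libraries, Nrxn2 was highest at 71.3 FPKM, followed by Shank1 at 58.9, Nlgn2 at 49.0, Nlgn3 at 32.5, Shank2 at 17.7, Nlgn1 at 15.6, Shank3 at 14.4 and Nrxn3 at 10.6. Each of the first 5 genes lay above the next in 4 of 4 libraries, with ranges that did not overlap. Nlgn1 and Shank3 overlapped, with Nlgn1 higher in 3 of 4 libraries. Shank3 lay above Nrxn3 in 4 of 4 libraries, although their ranges over all libraries overlapped.

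**Figure D1:**
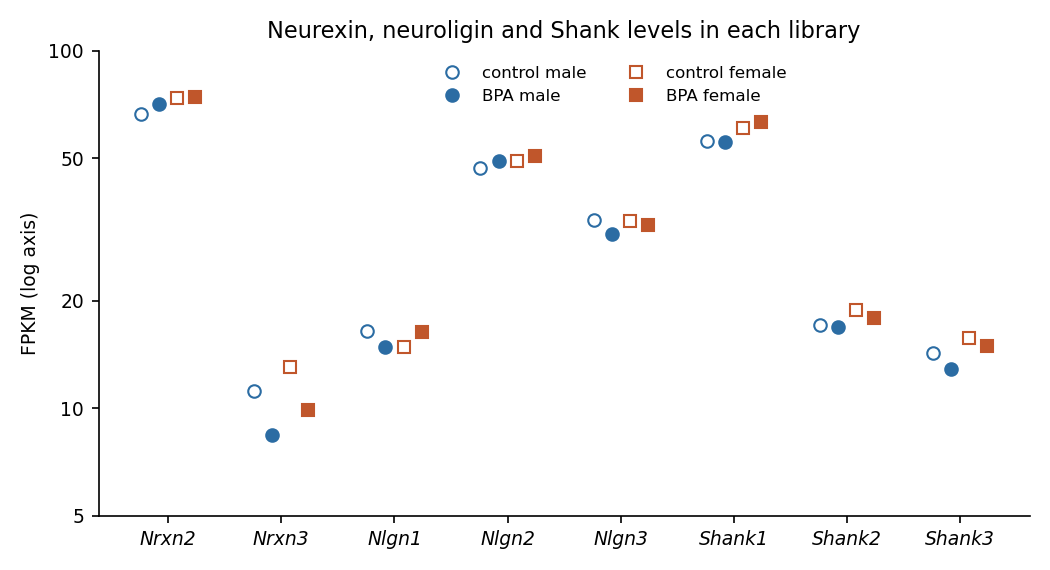
FPKM (log axis) of the 8 genes found by symbol, with open symbols for control and filled symbols for BPA libraries, circles for males and squares for females; each point is 1 library. Nrxn3 shows both filled symbols below both open symbols, at 8.40 and 9.85 FPKM against 11.15 and 13.07.

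The main question was whether BPA and control libraries differed. Nrxn3 was the only member with the same sizeable shift in both sexes, with a change in FPKM from control to BPA of −24.7% in males and −24.6% in females. The other 7 members lay within 0.15 log2 units of the control in each sex, and none of the 8 reached a log2 ratio of 1 in either direction, where 4.28% of rows did so in the male pair and 5.15% in the female pair. When the sexes served as replicates in limma, 0 of 8 members were called at an adjusted p of 0.05 and 1, Nrxn3, had an unadjusted p below 0.05. Over all 13163 rows, 0.562% were called and 17.3% had an unadjusted p below 0.05.

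Nrxn3 encodes a presynaptic neurexin. Its level was 11.15 FPKM in control and 8.40 in BPA males, and 13.07 in control and 9.85 in BPA females. Both BPA values lay below both control values, which held for 2 of the 8 members (Nrxn3 and Nlgn3) and for 31.9% of the 13163 rows, and the reverse held for 0 members and 18.7% of rows. The female library was the higher one under each treatment. The mean was 12.1 ± 1.4 FPKM in controls and 9.12 ± 1.0 with BPA (SD, n = 2 libraries each). These levels stood on 614 and 459 estimated fragments in males and 696 and 528 in females. On the log2(FPKM + 0.5) scale used for every log2 ratio here, the log2 ratio was −0.39 in males (95% counting interval −0.59 to −0.23) and −0.39 in females (−0.57 to −0.24). The female ratio minus the male ratio was 0.00 within a counting interval of −0.24 to 0.24.

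Against counting error alone, an exact binomial test on estimated fragments called the Nrxn3 difference in the male pair (adjusted p = 5.85e-05) and in the female pair (adjusted p = 1.5e-05). That test compares 2 libraries and not the conditions, and it called 21.9% of rows in the male pair and 22.4% in the female pair. Both calls were lost when libraries were allowed to vary with a coefficient of variation of 0.1 (adjusted p = 0.531 and 0.438). In limma the log2 ratio was −0.39 (SE 0.127, 95% confidence interval −0.70 to −0.08, Benjamini-Hochberg adjusted p = 0.215). Among rows with a mean FPKM of at least 1, 6.02% were as low or lower in both sexes. An exact permutation test of 2 against 2 libraries cannot give a two-sided p below 0.333.

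Markers of neighbouring tissue moved with treatment beside Nrxn3, although the methods state that the meninges were removed. All 13 markers of meninges and vessel wall lay below 0 in limma, 7 of them called, with a summed level of 544.1 and 700.5 FPKM in the control male and female libraries and 276.8 and 198.3 in the BPA libraries. Igf2, a growth factor of the meninges, was 61.22 FPKM in control and 18.69 in BPA males, and 61.10 in control and 14.13 in BPA females. Of the 3 olfactory bulb markers tested, Cdhr1, a cadherin of the bulb's output neurons, and Calb2, the calcium-binding protein calretinin, were called lower (log2 ratios −2.04 and −1.20), while Reln was not (0.07). The sum of these 3 markers was 112.3 and 119.3 FPKM in the control male and female libraries and 64.9 and 61.53 in the BPA libraries. Tbx21, a defining factor of the bulb's output neurons, was scarce, and limma did not test it. It was at 1.74 FPKM in control males and 0.85 in control females. In BPA males it was listed at 0.01, the lowest value of the file, and in BPA females at 0.05. Striatal markers went the other way, with 11 of 12 above 0, 2 of them called (Rxrg and Penk), and sums of 121.0 and 126.3 FPKM in control and 181.7 and 194.2 in BPA libraries. Their part in the Nrxn3 result was not tested, and in bulk tissue fewer cells of a type and less RNA per cell cannot be told apart.

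Markers of cortex and of neurons were present in all 4 libraries. Neurod6, a transcription factor of cortical excitatory neurons, lay between 215.6 and 255.3 FPKM, and Tubb3, a neuronal tubulin, between 1552 and 1887. The 9 cortical layer markers tested lay above 0 in 9 of 9 cases in limma, with Neurod2 called higher (log2 ratio 0.50). Within single library pairs some of them lay below 0, down to −0.07. Of 12 neuron markers, 5 lay above 0 and 7 below in limma, with a median of −0.10, and limma called 1, Slc17a7, a vesicular glutamate transporter, lower with BPA (log2 ratio −0.79). The fragment test called 8 of the 12 in each sex, and 21.9% of all rows in males and 22.4% in females. Limma called no glial marker, with medians of −0.36 for 8 astrocyte and radial glia markers such as Fabp7, −0.07 for 7 oligodendrocyte lineage markers such as Olig1 and −0.16 for 5 microglia markers such as Csf1r, beside −0.04 for all rows. Below 0 in limma lay 7 of 8 astrocyte and radial glia, 4 of 7 oligodendrocyte lineage and 4 of 5 microglia markers. In these glial lists 5, 3 and 0 markers had an unadjusted limma p below 0.05, a count to be read against 17.3% of all rows. The fragment test called 6, 3 and 0 markers of these lists in males and 5, 3 and 2 in females.

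Nrxn2, the other neurexin described, is the most abundant member. It was measured at 66.37 FPKM in control and 71.15 in BPA males, and 73.52 in control and 74.05 in BPA females. The control male library was the lowest, and the BPA male value lay below that of control females, so the groups overlapped. The male pair gave a log2 ratio of 0.10 (counting interval 0.04 to 0.16), which the fragment test called (adjusted p = 0.00417), and the female pair 0.01 (adjusted p = 0.92). The male call was lost with a coefficient of variation of 0.1 (adjusted p = 0.94), and the 2 control libraries differed from each other by more, with a female over male log2 ratio of 0.15. In limma the difference was 0.05 (adjusted p = 0.725). Nrxn3 amounted to 16.8% of the Nrxn2 level in control male and 17.8% in control female, against 11.8% in BPA male and 13.3% in BPA female.

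The neuroligins, postsynaptic partners of neurexins, were called neither by limma nor, with library totals as estimated, by the fragment test in either sex. Nlgn1, a neuroligin of excitatory synapses, was at 16.39 FPKM in control and 14.84 in BPA males, and 14.85 in control and 16.38 in BPA females. The high and the low library of each treatment had nearly the same values with the sexes exchanged, so the means were 15.6 ± 1.1 FPKM in both groups (SD, n = 2 libraries each). The log2 ratio was −0.14 in males (counting interval −0.33 to 0.04) and 0.14 in females (−0.05 to 0.33).

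Nlgn2, the neuroligin of inhibitory synapses, was at 46.96 FPKM in control and 49.19 in BPA males, and 49.20 in control and 50.71 in BPA females. The BPA library was the higher one in each sex, by log2 ratios of 0.07 (adjusted p = 0.222) and 0.04 (adjusted p = 0.49) in the fragment test. The male value was called (adjusted p = 0.0235) once library totals were rescaled to the median ratio of rows. Limma gave 0.05 with an adjusted p of 0.685.

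Nlgn3 is an X-linked neuroligin. It was at 33.53 FPKM in control and 30.73 in BPA males, and 33.29 in control and 32.55 in BPA females. Both BPA values lay below both control values, with means of 33.4 ± 0.17 FPKM in controls and 31.6 ± 1.3 with BPA (SD, n = 2 libraries each). The fragment test did not call it in males (log2 ratio −0.12, adjusted p = 0.0899) or females (−0.03, adjusted p = 0.806), and limma gave −0.08 (adjusted p = 0.583). The Nlgn3 protein record was also given to the row of Med12, a Mediator subunit. Nlgn3 was 2.63 and 2.67 times the Med12 FPKM in control and BPA males and 2.59 and 2.67 times in control and BPA females. Rows that change little keep such a ratio whether or not they share reads. Reads may be shared between these rows, which was not tested, so the Nlgn3 level is uncertain.

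Summed over the 3 neuroligins, the level was 96.88 FPKM in control and 94.76 in BPA males, and 97.34 in control and 99.64 in BPA females. The sum thus differed little between libraries. Nlgn2 supplied 48.5% to 51.9% of it, Nlgn3 32.4% to 34.6% and Nlgn1 15.3% to 16.9%.

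The Shanks, scaffold proteins of the postsynaptic density, were likewise not called between BPA and control. Shank1 was at 56.04 FPKM in control and 55.60 in BPA males, and 60.70 in control and 63.13 in BPA females. Its values separated by sex and not by treatment. The log2 ratio was −0.01 in males (adjusted p = 0.915) and 0.06 in females (adjusted p = 0.156), and the female value was called (adjusted p = 0.00295) only with rescaled library totals.

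Shank2 was at 17.11 FPKM in control and 16.89 in BPA males, and 18.80 in control and 17.86 in BPA females. The log2 ratios of −0.02 in males (adjusted p = 0.934) and −0.07 in females (adjusted p = 0.388) both had counting intervals that included 0. Shank3, which is deleted in Phelan-McDermid syndrome, was at 14.24 FPKM in control and 12.87 in BPA males, and 15.66 in control and 14.94 in BPA females. The BPA library was the lower one in each sex, with log2 ratios of −0.14 (adjusted p = 0.127) and −0.07 (adjusted p = 0.568), but the treatment groups overlapped. In limma the 3 genes gave 0.02, −0.05 and −0.10 for Shank1, Shank2 and Shank3, with adjusted p of 0.911, 0.818 and 0.654.

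The make-up of the Shank family hardly varied. Shank1 supplied 63.8% to 65.8% of the summed level of the 3 Shanks, Shank2 18.6% to 19.8% and Shank3 15.1% to 16.5%. The sum was higher in the female libraries, at 95.16 FPKM in control and 95.93 in BPA females, than in the males, at 87.39 and 85.36.

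**Figure D2:**
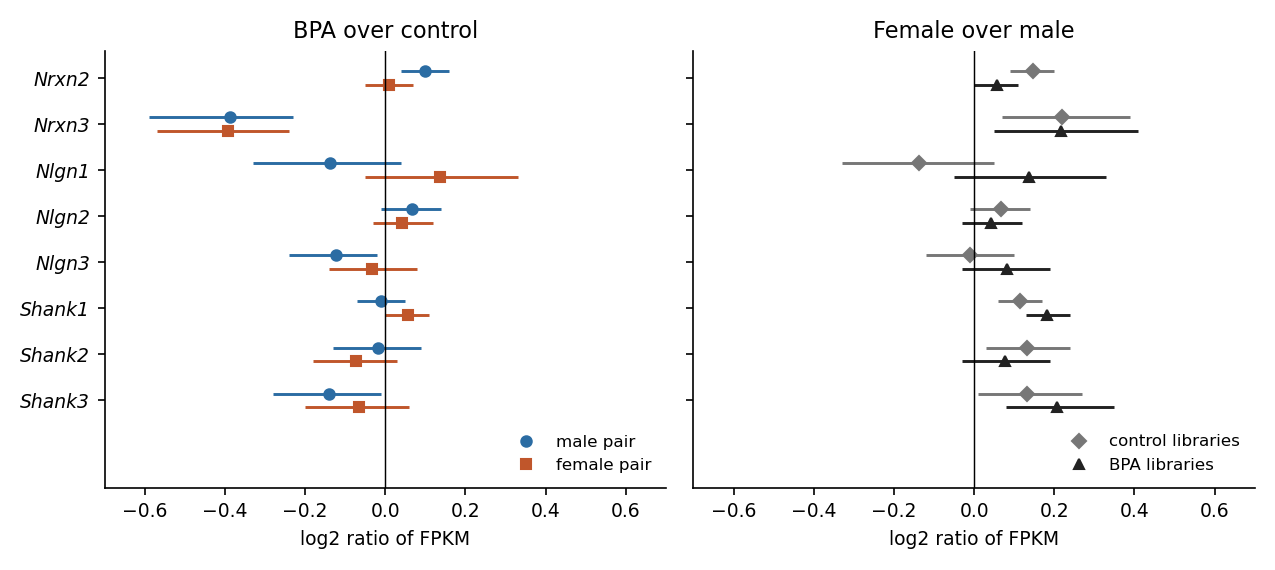
Log2 ratios of the 8 genes between libraries, BPA over control within each sex (left) and female over male within each treatment (right); points are ratios of FPKM + 0.5 and bars the 95% interval that counting error alone gives for the ratio of FPKM. Nrxn3 lies at −0.39 in both sexes on the left, while on the right most members lie above 0.

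Taken over the 8 members, the median log2 ratio was −0.07 in males, with 2 higher and 6 lower, and −0.01 in females, with 4 higher and 4 lower. All rows with a mean FPKM of at least 1 had medians of −0.04 in each sex. Relative to those medians the members split 4 against 4 in males and 5 against 3 in females, so the signs of the small ratios turn with the scaling. The median absolute log2 ratio of the members was 0.112 in males and 0.061 in females, against 0.163 and 0.165 for all rows.

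**Figure D3:**
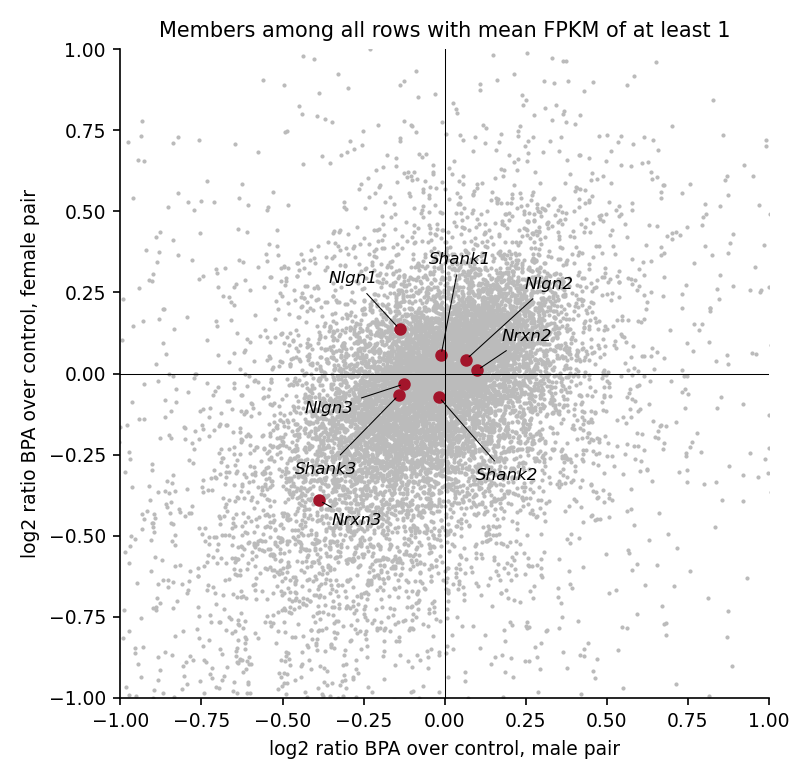
Log2 ratio of BPA over control in the male pair (x axis) and the female pair (y axis) for rows with a mean FPKM of at least 1 (grey), with the 8 members in red; 755 of 13163 rows lie beyond the axes. Nrxn3 lies in the lower left, at −0.39 on both axes, and the other 7 members lie near the origin.

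Libraries of the same treatment also differed from each other. For Nrxn3 they differed by less than BPA and control libraries did (0.22 against −0.39 on the log2 scale), and for Shank1 by more (0.11 and 0.18 against −0.01 and 0.06). The female library was higher than the male one for 6 of 8 members in controls and for 8 of 8 with BPA, with median log2 ratios of 0.12 and 0.11 beside 0.00 and −0.01 for all rows. The median absolute log2 ratios were 0.132 and 0.11 for the members and 0.117 and 0.129 for all rows. The fragment test called 3 members higher in females among controls, namely Nrxn2 (log2 ratio 0.15, adjusted p = 1.09e-05), Nrxn3 (0.22, adjusted p = 0.0449) and Shank1 (0.11, adjusted p = 0.00167), where it called 10.4% of all rows. With BPA it called Shank1 (0.18, adjusted p = 1.27e-08) and Shank3 (0.21, adjusted p = 0.0173), where it called 12.8% of all rows. Rows with as many fragments as the members, 434 to 5210 in each library, were called more often than rows in general: 11.6% in the control pair and 19.0% in the BPA pair, and 32.3% and 30.0% between BPA and control in males and females, where 2 and 1 of the 8 members were called.

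Partners of the members were examined through 4 gene lists. No gene of any of the 4 was called by limma in either direction. In males the fragment test called 14 of 40 trans-synaptic adhesion, 10 of 26 postsynaptic scaffold, 8 of 25 presynaptic and 6 of 23 contactin and axonal genes. In females it called 18, 9, 9 and 10 of them in the same order. It called 21.9% and 22.4% of all rows in males and females, and 32.3% and 30.0% of rows with as many fragments as the members. Trans-synaptic adhesion genes, which include the other ligands of neurexins, had 20 of the 40 tested above 0 and 20 below, with a median log2 ratio of −0.01 beside −0.04 for all rows. With each library centred on its median, the split was 24 above 0 and 16 below. Of these, 12 had an unadjusted p below 0.05, a share to be read, as in the other 3 lists, against 17.3% of all rows. The highest were Clstn2, a calsyntenin (0.31, adjusted p = 0.236), and Lrrc4b, a postsynaptic leucine-rich repeat protein (0.27, adjusted p = 0.0969). The lowest were Cbln4, a secreted cerebellin that binds neurexins (−0.87, adjusted p = 0.247), and Flrt3, a ligand of latrophilins (−0.43, adjusted p = 0.208). Cbln4 was scarce, at 1.37 FPKM in control and 0.65 in BPA males, and 2.05 in control and 0.74 in BPA females. Lrrc4b was at 90.12 FPKM in control and 108.8 in BPA males, and 89.02 in control and 107.8 in BPA females, so both BPA values lay above both control values, as in 18.7% of all rows.

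Among 26 postsynaptic scaffold genes tested, 7 lay above 0 and 19 below, with a median of −0.10 and 5 unadjusted p below 0.05. Baiap2, an actin regulator that binds Shanks, and Dlg2, a membrane-associated guanylate kinase, were the highest (0.20 and 0.15, adjusted p = 0.413 and 0.265). Magi1 and Dlg1, 2 further scaffolds of the same kind, were the lowest (both −0.26, adjusted p = 0.221 and 0.363). After each library was centred on its median, the split became 11 above 0 and 15 below.

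Of 25 genes for presynaptic release and neurexin-binding scaffolds, 5 lay above 0 and 20 below, with a median of −0.08 and 4 unadjusted p below 0.05, and centring turned the split to 12 and 13. Lin7b, a partner of the neurexin-binding kinase Cask, was at 7.57 FPKM in control and 5.02 in BPA males, and 8.25 in control and 4.90 in BPA females (−0.62, adjusted p = 0.0938). Its relatives Lin7a and Lin7c were the highest of the list (0.10 and 0.09, adjusted p = 0.808 and 0.548). Syn2, a synaptic vesicle synapsin, was at 18.62 FPKM in control and 13.96 in BPA males, and 20.60 in control and 12.64 in BPA females (−0.54, adjusted p = 0.0792). Both genes, the lowest of the list, had BPA values below both control values, as did 31.9% of all rows, and neither passed the adjusted threshold.

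The contactins, Cntnap relatives and their axonal partners gave 6 genes above 0 and 17 below among 23 tested, with a median of −0.12 and 5 unadjusted p below 0.05. With centred libraries the split was 8 and 15. Lgi1, a secreted ligand of Adam22 and Adam23, and Kcnab2, a potassium channel subunit, were the highest (0.20 and 0.16, adjusted p = 0.333 and 0.569). Cntnap1, the paranodal relative of Cntnap2, was at 1.99 FPKM in control and 0.90 in BPA males, and 2.17 in control and 1.39 in BPA females (−0.66, adjusted p = 0.29). Cntn4, a contactin, was at 4.95 FPKM in control and 3.28 in BPA males, and 5.34 in control and 3.82 in BPA females (−0.48, adjusted p = 0.21). Both BPA values lay below both control values in these 2 genes, the lowest of their list, as in 31.9% of all rows.

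**Figure D4:**
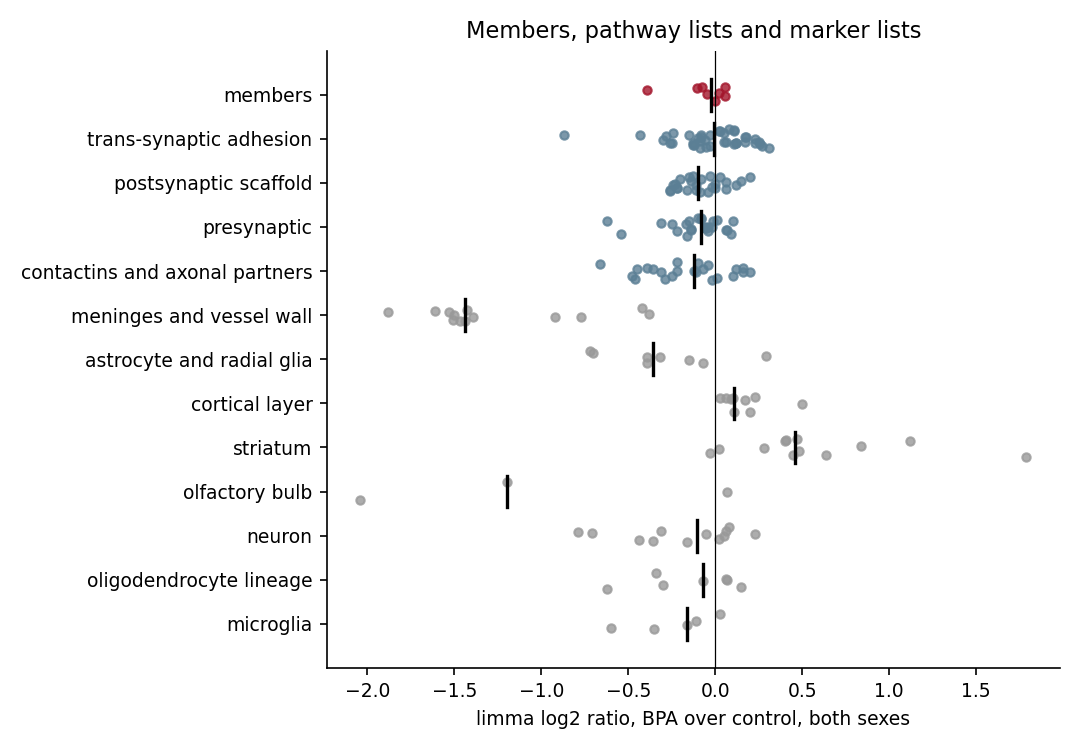
Log2 ratio of BPA over control from limma with both sexes for each tested gene (points; vertical position within a line is spread for legibility) of the members (red), the 4 partner lists (blue) and the 8 marker lists (grey), with black bars for medians. The medians of the members and partner lists lie between −0.12 and −0.01, those of the meninges and olfactory bulb lists at −1.44 and −1.20 and that of the striatum list at 0.46.

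Cntnap2 could be described only through 2 assembled rows without a symbol that carry the KEGG orthology term of contactin-associated protein-like 2. The term is also given to Cntnap5 relatives in the same tables, so it does not identify the gene, and these rows were not counted as members. The longer row, of 7582 bases, was at 13.96 FPKM in control and 10.61 in BPA males, and 13.77 in control and 11.50 in BPA females. Both BPA values lay below both control values, as in 31.9% of all rows. The log2 ratio was −0.38 in males (fragment test, adjusted p = 3.87e-07) and −0.25 in females (adjusted p = 0.00181). That test allows for counting error only, and it called 21.9% of all rows in males and 22.4% in females. No result with a variation of 0.1 between libraries, which removed the Nrxn3 calls, is given for this row. Limma gave −0.32 (SE 0.0908, adjusted p = 0.184). The shorter row, of 1804 bases, was at 6.76, 6.56, 7.12 and 6.89 FPKM in the same order of libraries and was not called, with −0.04 in each sex on 105 to 111 estimated fragments.

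Rows whose profile over the 4 libraries lay closest to each member were found by Euclidean distance of centred log2 values. For Nrxn3 they were Taf1 (distance 0.0268), Fahd2a (0.0291) and Elmsan1 (0.0333). Taf1, a subunit of the general transcription factor TFIID, was at 12.17 FPKM in control and 9.42 in BPA males, and 14.55 in control and 10.96 in BPA females, which repeats both the lower BPA values and the higher female values of Nrxn3. Nlgn1 was closest to Cdk5rap2 (0.0092), Akap5 (0.0131) and Wdr4 (0.0153). Shank1 was closest to Fam160b2 (0.0107) and the cannabinoid receptor gene Cnr1 (0.0128), and Shank2 to Vps13d, Sulf2 and Usp31 (0.0073 to 0.0167). Ankrd13a (0.0096) was among the 3 rows nearest to Shank3. The nearest named rows were Cep89 and Xab2 for Nrxn2, RGD1560108, Clip3 and Pip5k1c for Nlgn2, and Uqcr10, Npepl1 and Tctn1 for Nlgn3. With 13163 rows and 4 libraries, close profiles arise for any gene, and these are descriptions only.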

How the data were processed

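The authors isolated polyadenylated RNA, sequenced it, and obtained expression with Bowtie2 and RSEM on the rat build rn6, and HISAT is also named in the submitters' processing notes. Versions are not given in the sources used here. The deposited values are FPKM per transcript row, with 2 decimals and 0.01 as the lowest value, 1 file per library.

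Log2 ratios were taken of FPKM + 0.5. For both sexes together, limma 3.58.1 (R 4.3.3) with a trend in the prior variance was fitted to the 13163 rows whose mean FPKM was at least 1, using treatment as the only term, 2 residual degrees of freedom and Benjamini-Hochberg adjustment. Limma p-values weigh the difference against the spread between the male and the female library within a treatment, moderated by the trend over all rows. Depth was estimated as the number of fragments at which scarce rows (741 to 796 per library) gave whole numbers: 79.0% to 81.7% came within 0.1 of one, where chance gives 20%. Each pair of libraries was then compared by an exact two-sided conditional binomial test on estimated fragments (the fragment test), adjusted over all rows. This step used length minus 60 bases. Limma, the depth estimate and the fragment test were tested on simulated data. Where simulated libraries also varied beyond counting error, the fragment test, which allows for counting error only, also called unchanged rows. Python 3.11.15, numpy 2.4.6, pandas 2.3.3, scipy 1.17.1 and matplotlib 3.10.9 were used.

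Members, gene lists and markers were chosen with earlier results of these data known. All members were named. Of each partner list the genes called by limma, or else the 2 highest and 2 lowest, were named, and of each marker list up to 3 of the highest mean FPKM. The 3 nearest profiles of each member were named where they had a symbol, except 1 that is not reported here. Slc17a7, Neurod2, Rxrg, Penk and Tbx21 were named after their values were seen. The alternatives were other pseudocounts, filters, centring, a sex block, summed symbols, Gene ID rows only, a variation of 0.1 between libraries, and each library left out.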

Additional observations from a re-analysis of the deposited data

Results flagged for a closer look

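Nlgn1 and Shank1 gave log2 ratios of BPA over control with opposite signs in the sexes. For Nlgn1 the female ratio (0.14) minus the male ratio (−0.14) was 0.276, with a counting interval of 0.01 to 0.54, and 31.2% of 13163 rows differed between the sexes by at least as much. For Shank1 the difference was 0.067, with a counting interval of −0.01 to 0.15. Nrxn2, whose ratios had the same sign in both sexes, differed by −0.089, with a counting interval of −0.17 to −0.01. Once ratios were centred on the median of all rows, the Shank1 ratios were both above 0 (0.027 in males and 0.099 in females), and those of Nlgn3 (−0.086 and 0.011) and Shank2 (0.020 and −0.029) had opposite signs. With 1 library per sex and treatment, no difference between the sexes was tested.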

How the results depend on the processing

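No member was called by limma under any of the 11 alternatives run. For Nrxn3 the log2 ratio ranged from −0.50 to −0.28 when each library was left out and from −0.40 to −0.33 otherwise, with adjusted p from 0.112 to 0.56. Leaving out single libraries gave log2 ratios of −0.0183 to 0.128 for Nrxn2, −0.0699 to 0.0681 for Nlgn1, 0.0214 to 0.0880 for Nlgn2, −0.119 to −0.0371 for Nlgn3, −0.0684 to 0.113 for Shank1, −0.111 to 0.0210 for Shank2 and −0.21 to 0.0006 for Shank3. Centring each library on its median turned Nlgn1 to 0.0629 and Shank2 to 0.0187, from −0.0009 and −0.0451. The number of rows called by limma was 74, against 477 of 10632 with Gene ID rows only, 0 of 16182 without a filter, and 17, 6, 11 and 0 without control male, BPA male, control female or BPA female. These counts bear on all rows and not on the members. With sex as a block, which pairs the BPA and control library of each sex and leaves 1 residual degree of freedom, 86 rows and 0 members were called (Nrxn3 adjusted p = 0.13). With a variation of 0.1 between libraries, the fragment test called 0 members in males, beside 3.9% of all rows, and 0 in females, beside 5.19%. With rescaled totals it called 3 in males (Nrxn2, Nrxn3 and Nlgn2), beside 21.9% of rows, and 2 in females (Nrxn3 and Shank1), beside 23.1%. Depth limits the members with the fewest fragments most. On 434 to 495 estimated fragments, the Nlgn1 counting interval was −0.33 to 0.04 in males and −0.05 to 0.33 in females.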
